A study of Mus musculus with 8 samples.

Results

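The genes that surround Cldn7 on mouse chromosome 11 were followed in the gut of pups that lack claudin-7. All array probes placed within 5 Mb of the Cldn7 probe, at chr11:64781255-74781314 of mouse build mm9, were taken, and both claudin-7 probes were left out. This gave 433 of the 55681 probes on the array, and they stand for 239 named genes. Of these probes, 326 were bright enough to test, 104 fell under the background filter and 3 were lost to a spot flag. The tested probes stand for 199 named genes, 33 of them are lincRNA probes, and 9 are olfactory receptor probes out of 36. The members were chosen by position alone.

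The study compared claudin-7 knockout (KO) with wild-type (WT) pups of strain 129SV at 3 days of age, untreated. Total RNA came from fragments of whole small or large intestine, so each sample mixes epithelium, muscle, nerve and immune cells. Each of the 4 groups (WT small, KO small, WT large and KO large intestine) had 2 samples, numbered 2 and 3, and each sample was hybridised to its own array. The labels do not say whether small and large intestine of the same number came from the same pup, so p-values here measure only the spread between these samples. The stretch of Cldn7 that was removed is not given in the sources used here. Fewer cells of a type and less RNA per cell cannot be told apart in such samples.

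Claudin-7 is a tight junction protein of epithelial cells that also lies along their basolateral sides. A gene is knocked out by altering its locus, and the DNA around it is inherited together with it, so neighbours of a targeted gene are commonly read as a check on whether the change stayed local. The block of chromosome 11 around Cldn7 is dense in genes, among them housekeeping genes, lipoxygenases, sarcomeric myosin heavy chains, Nlrp1 inflammasome sensors and olfactory receptors.

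The sequences that the main results turn on are these. Start windows come from RefSeq (GRCm38.p6) and probes from the deposited files (mm9). RefSeq gives Cldn7 a pair of start windows of 300 bases, 250 before and 50 after a start. The second claudin-7 probe of the array lies whole inside the second window, chr11:69965171-69965470 on the plus strand, at bases 100 to 159, shown in capitals, and ends 92 bases before that start. The window holds 17 CpG dinucleotides, against a median of 7 over 32851 RefSeq windows.
Cldn7 second start window: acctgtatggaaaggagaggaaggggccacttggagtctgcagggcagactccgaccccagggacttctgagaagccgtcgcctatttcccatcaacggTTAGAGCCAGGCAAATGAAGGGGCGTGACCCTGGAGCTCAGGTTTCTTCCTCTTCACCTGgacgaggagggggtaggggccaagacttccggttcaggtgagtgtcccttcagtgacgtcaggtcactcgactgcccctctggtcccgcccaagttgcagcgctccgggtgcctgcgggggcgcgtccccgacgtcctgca
Elp5, the next gene toward higher coordinates (called above here, with lower coordinates below), is read from the minus strand toward Cldn7, and its upstream start window, chr11:69981186-69981485 (GRCm38.p6), overlaps that of Ctdnep1 by 32 bases, shown in capitals. The line is written along the Elp5 strand.
Elp5 upstream start window: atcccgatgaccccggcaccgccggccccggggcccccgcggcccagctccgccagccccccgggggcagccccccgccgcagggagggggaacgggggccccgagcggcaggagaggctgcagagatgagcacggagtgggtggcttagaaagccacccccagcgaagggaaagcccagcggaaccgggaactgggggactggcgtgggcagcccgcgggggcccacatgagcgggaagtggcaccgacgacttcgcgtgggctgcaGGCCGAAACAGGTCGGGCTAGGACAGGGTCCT
Tnfsf13os is a noncoding transcript named for its place opposite Tnfsf13, and its probe lies at chr11:69504584-69504643 (mm9, plus strand).
Tnfsf13os probe: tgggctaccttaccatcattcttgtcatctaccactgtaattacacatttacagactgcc
One lincRNA, annotated on the forward strand at chr11:69196530-69197001 (mm9), has 3 probes, at chr11:69196546-69196605, chr11:69196616-69196675 and chr11:69196933-69196992. They are shown because only the third went down in KO pups.
lincRNA probe 1: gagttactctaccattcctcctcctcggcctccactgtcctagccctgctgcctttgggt
lincRNA probe 2: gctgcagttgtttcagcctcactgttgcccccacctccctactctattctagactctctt
lincRNA probe 3: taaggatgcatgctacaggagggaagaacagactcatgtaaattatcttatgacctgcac
One Nlrp1a probe (chr11:70905763-70905822, mm9, minus strand) and the probe of its pseudogene Nlrp1c-ps (chr11:71055960-71056019, minus strand) share 52 of 57 aligned bases, with the 5 that differ in capitals, so their signals may be mixed.
Nlrp1a probe: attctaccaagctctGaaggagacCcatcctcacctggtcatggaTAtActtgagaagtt
Nlrp1c-ps probe: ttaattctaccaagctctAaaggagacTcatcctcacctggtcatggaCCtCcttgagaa

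Signals are log2 values relative to the 75th percentile of the same array, so 0 is a bright probe. Between 63.6% and 72.1% of the spots of an array were well above background, and no member was saturated. Over the tested members, the arrays of a group correlated at 0.984 to 0.993. Some samples stood apart. The array of KO large 2 carried liver RNA (Alb at 5.23, against -8.38 to -4.53 on the other arrays), and WT large 2 and KO large 3 carried pancreatic RNA (Amy2a5 at 2.30 and 2.05). Both KO arrays numbered 3 were low in the Y-linked Ddx3y and Eif2s3y and high in Xist (-2.43 and -2.42), and the other 6 arrays were the reverse. Small and large intestine markers followed the labels: summed over 6 small-intestine markers, the level was 8.69 to 9.51 on the small intestine arrays and 4.00 to 4.91 on the others. Summed over 6 large-intestine markers, it was 0.75 to 5.33 on the small intestine arrays and 7.50 to 8.30 on the others. WT small 2 (5.33) and KO small 2 (3.94) were above WT small 3 (3.10) and KO small 3 (0.75), mostly through Aqp8 (5.32 and 3.92 in samples 2).

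The targeted gene itself behaved as the labels say. The Cldn7 probe (chr11:69781255-69781314) read 5.89 and 5.93 in WT small intestine, 2.21 and 0.94 in KO small intestine, 5.70 and 5.56 in WT large intestine, and 2.08 and 2.16 in KO large intestine. The groups did not overlap in either segment. The fall was 20.2-fold in the small intestine (-4.34 ± 0.39, SE, adjusted p = 0.012) and 11.4-fold in the large intestine (-3.52 ± 0.39, adjusted p = 0.0441). The second claudin-7 probe, 2423 bases below, fell 2.86-fold over both segments (-1.52 ± 0.18, adjusted p = 0.0308). Taken apart, it differed by -1.73 in small and -1.30 in large intestine (adjusted p = 0.0273 and 0.118). Its call over both segments held only without WT small 3, and the other 7 arrays left out gave an adjusted p of 0.0787 to 0.119. The small intestine call of the Cldn7 probe was lost without KO small 3 (adjusted p = 0.0501), WT large 2 (0.0595), WT large 3 (0.0559) or WT small 3 (0.061). The large intestine call was lost without KO large 2 (0.075), KO large 3 (0.0917), WT large 2 (0.0955) or WT large 3 (0.297).

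Few of the probes around Cldn7 passed. In the fit over both segments 3 members passed at an adjusted p under 0.05, all lower in KO pups, out of 326 (0.92%, against 0.478% of all 38717 probes tested, or 0.274% lower and 0.204% higher). Counted without a test, 52 members had both KO arrays on the same side of both WT arrays in both segments (16%, against 15.1% of all probes). Of these 35 were lower (10.7%, against 10.2%) and 17 higher (5.21%, against 4.89%), and 46 members moved in opposite directions in the 2 segments (14.1%, against 15.5%). The split depends on scaling: 21 were higher and 25 lower when each array was centred on its median instead. The shares of all probes with that centring are not given here. The fitted effect had the same sign in both segments for 159 of 326 members (48.8%, against 47.6%). The median effect over both segments was -0.07 among members and -0.05 over all probes.

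**Figure D1:**
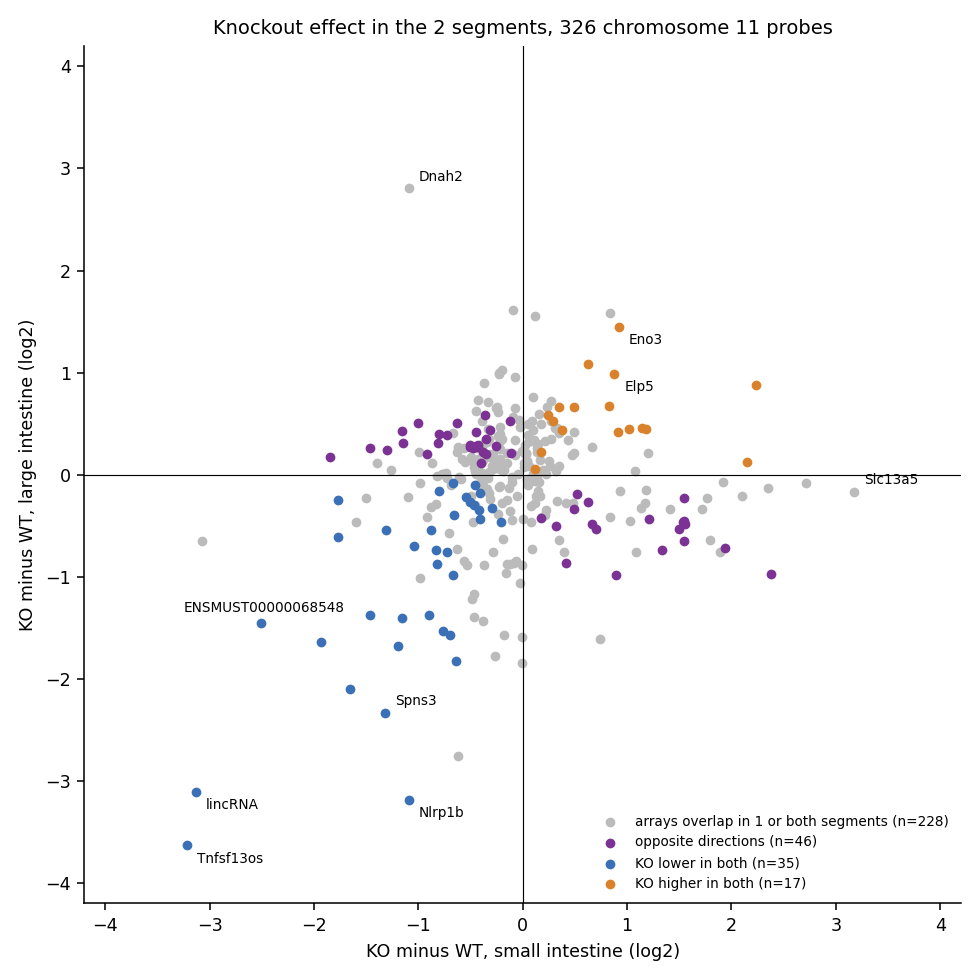
Each point is 1 of 326 tested chromosome 11 probes, with its KO minus WT difference (log2) in small intestine on the x axis and in large intestine on the y axis. Colour gives the array overlap: 35 probes lower in KO in both segments, 17 higher, 46 in opposite directions. Most points lie near 0, and Tnfsf13os and the lincRNA probe are the lowest on both axes together.

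Large shifts of the same sign were all downward. Among members shifted at least 2-fold in each segment, 10 had KO arrays below WT arrays in both (3.07%, against 1.54% of all probes), and 0 had them above (0.806% of all probes). These 10 were 6 lincRNA probes, Tnfsf13os, the transcript ENSMUST00000068548, Nlrp1b and Spns3. Of the 33 tested lincRNA members 18.2% were among them, while lincRNA probes made up the same class at 2.85% over the array and 4.39% on the rest of chromosome 11. Of the 293 other members 1.37% were. Without the 2-fold minimum 24.2% of the lincRNA members were lower in both segments, against 21.9% of lincRNA probes on the rest of chromosome 11 and 14.8% over the array. The lincRNA members were also dim, with a median level of -5.54 against -0.85 for the other members. Some of the 6 read as low as -8.42 to -8.95 on a KO array, so whether they reach 2-fold is uncertain. That lincRNAs were set apart here was chosen after their values were seen.

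Tnfsf13os fell most. Its probe, 277 kb below Cldn7, read 3.76 and 3.74 in WT small intestine and 1.32 and -0.25 in KO small intestine. In large intestine it read -0.09 and 0.37 in WT and -3.88 and -3.10 in KO. KO arrays were below WT arrays in both segments, and large intestine was below small intestine in both genotypes. The fall was 9.30-fold in small intestine (-3.22 ± 0.52, adjusted p = 0.036) and 12.4-fold in large intestine (-3.63 ± 0.52, adjusted p = 0.0785), and 10.7-fold over both (-3.42 ± 0.36, adjusted p = 0.0234). The probes of Tnfsf12, which encodes the cytokine TWEAK and lies next to Tnfsf13, lie beside it and differed by 0.10 ± 0.23 and 0.41 ± 0.34 over both segments (adjusted p = 0.858 and 0.612). The call of Tnfsf13os over both segments was lost without WT small 2 (adjusted p = 0.11), WT large 2 (0.099), WT large 3 (0.117), KO large 2 (0.0664), KO large 3 (0.0787) or KO small 3 (0.0589).

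The other members that passed over both segments carry no gene name, and are described because they passed. The third probe of the lincRNA shown above, 584 kb below Cldn7, read -2.76 and -3.29 in WT small intestine and -5.75 and -6.56 in KO small intestine. It read -3.59 and -3.05 in WT large intestine and -5.98 and -6.88 in KO large intestine. The fall was 8.68-fold over both segments (-3.12 ± 0.29, adjusted p = 0.0199) and of the same size in each (-3.13 and -3.11). This probe was well above background on 1 of 2 KO small arrays, so the size is uncertain. ENSMUST00000068548, 2044 kb below Cldn7, read -1.01 and -1.22 (WT) against -3.44 and -3.80 (KO) in small intestine, and -1.40 and -0.94 against -2.72 and -2.54 in large intestine. It fell 3.95-fold over both segments (-1.98 ± 0.26, adjusted p = 0.0379). Leaving out WT large 3 gave an adjusted p of 0.11 for the lincRNA probe and 0.136 for ENSMUST00000068548, the highest for each. The lincRNA call was also lost without WT small 2 (0.0857), WT large 2 (0.0849), KO small 3 (0.0589) or KO large 3 (0.0619). The call of ENSMUST00000068548 held only without WT small 3 (0.0465).

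**Figure D2:**
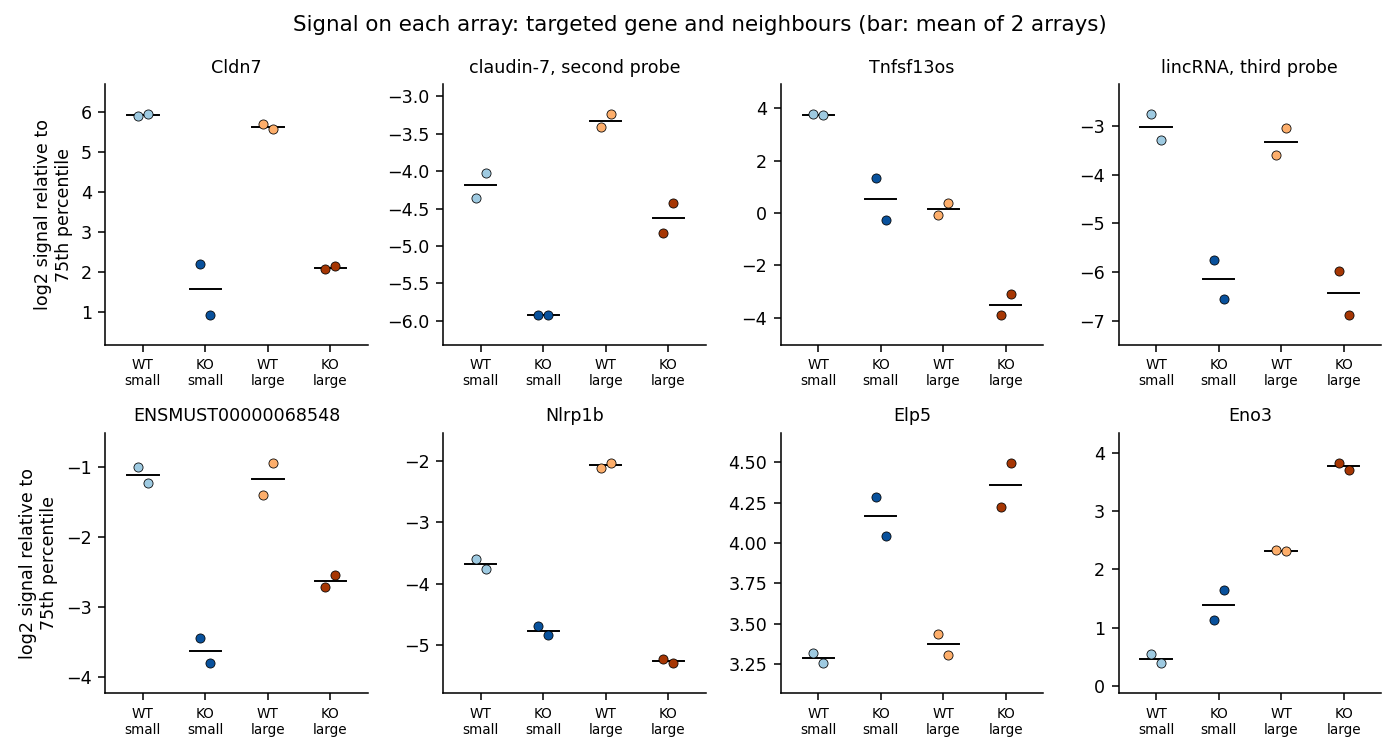
Signal of 8 probes on each of the 8 arrays (log2 relative to the array's 75th percentile, a scale of its own in each panel), with sample 2 as the left point and sample 3 as the right point of a group, and a bar at the mean of the 2. The claudin-7 probes, Tnfsf13os, the lincRNA probe, ENSMUST00000068548 and Nlrp1b are lower in KO in both segments, and Elp5 and Eno3 are higher.

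The lincRNA probe belongs to a cluster of 11 annotated lincRNAs with 37 probes, of which 20 were tested, between chr11:69184183 and chr11:69196992. In this cluster 5 of the 20 tested probes were lower in KO in both segments (25%) and 0 were higher. The share lower in both was 14.8% of all lincRNA probes of the array and 21.9% of those on the rest of chromosome 11. Its other probes disagreed at close range. Probes 1 and 2 of the same lincRNA, which lie 10 bases apart and end 257 bases before probe 3, differed by 0.06 ± 0.24 and -0.02 ± 0.21 over both segments (adjusted p = 0.938 and 0.983). They are brighter: probe 1 read 0.59 to 1.73 over all 8 arrays and probe 2 read -0.94 to 0.40. A longer lincRNA on the same strand, chr11:69184157-69201732, had 2 of its 4 tested probes lower in both segments (-1.88 ± 0.36 and -1.78 ± 0.38, adjusted p = 0.0681 and 0.0841). On the KO arrays these probes read -7.10 to -8.95 and -6.62 to -8.43. The bound used for the dim Rnf222 probe in KO small intestine was -6.99, so the size of these falls is uncertain. On the reverse strand, the lincRNA at chr11:69188111-69188571 had 3 tested probes, at -1.69 ± 0.58, -1.42 ± 0.25 and -1.43 ± 0.27, with adjusted p of 0.219, 0.0599 and 0.0665. The nearest coding genes above the cluster include Kdm6b, a histone H3 lysine 27 demethylase. Its 2 probes read -1.23 ± 0.38 and -0.27 ± 0.19 (adjusted p = 0.177 and 0.525).

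**Figure D3:**
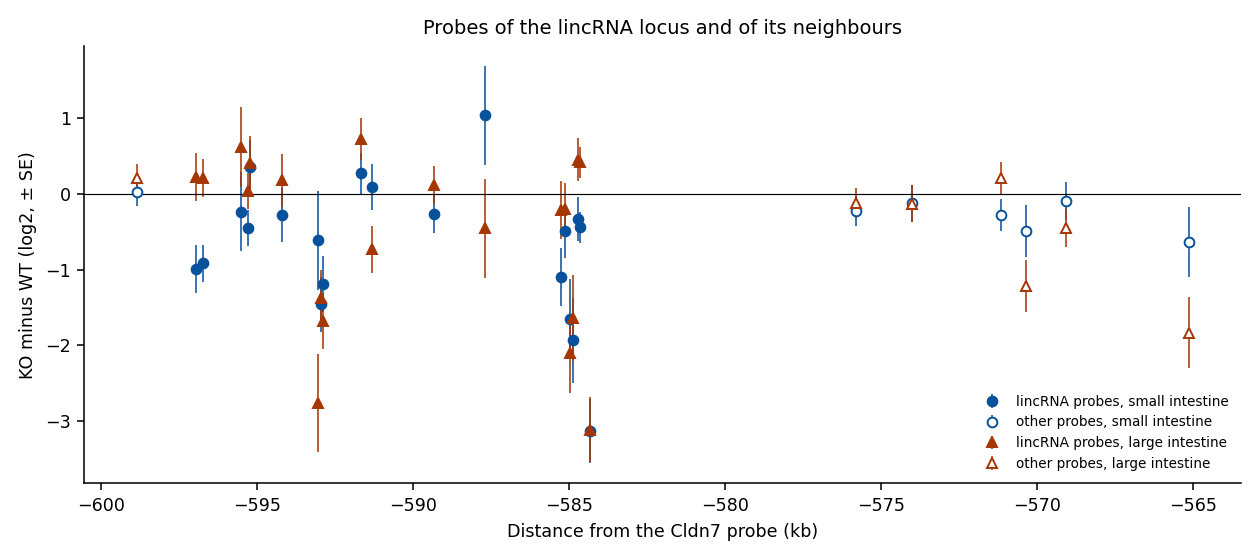
KO minus WT difference (log2, error bar SE) in small intestine (circles) and large intestine (triangles) of probes in and around the lincRNA cluster, by distance from the Cldn7 probe in kb (negative below it), filled for lincRNA probes and open for others. Probes at or near 0 lie beside the falls of over 1, which include the lincRNA probe at -3.13 and -3.11.

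In the Nlrp1 cluster, more than 1 Mb above Cldn7, Nlrp1b was the single member to pass in both segments taken apart. Nlrp1 proteins are inflammasome sensors that activate caspase-1, and in mice they are encoded by neighbouring paralogs. The Nlrp1b probe, 1188 kb above Cldn7, read -3.59 and -3.76 in WT small intestine and -4.69 and -4.83 in KO small intestine. It read -2.11 and -2.03 in WT large intestine and -5.22 and -5.29 in KO large intestine. It fell 2.12-fold in small intestine (-1.09 ± 0.19, adjusted p = 0.0391) and 9.09-fold in large intestine (-3.18 ± 0.19, adjusted p = 0.00587). The large intestine call was lost without WT large 3 (adjusted p = 0.102). The small intestine call held only without KO small 2 (0.0334), and reached 0.152 without KO small 3. The effects of the segments differed by -2.10, with an adjusted p of 0.085. Over both segments the fall was -2.14 ± 0.40 (adjusted p = 0.0672). A second Nlrp1b probe was not well above background on any array.

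The paralog probes shown above were lower too. Nlrp1c-ps read -5.83 and -6.03 against -6.70 and -6.54 in small intestine, and -5.27 and -5.18 against -6.83 and -6.77 in large intestine (-1.13 ± 0.21 over both, adjusted p = 0.0665). The similar Nlrp1a probe gave -1.14 ± 0.23 (adjusted p = 0.0727). A further Nlrp1a probe was bright (2.68 to 4.43 over the arrays) and gave 0.19 ± 0.30, and another gave -0.15 ± 0.26, so the probes of Nlrp1a did not move together. Values of single paralogs are uncertain where probes share sequence.

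Next to Cldn7, Elp5 read higher on every KO array than on every WT array of its segment, without passing the test. Elp5 encodes a subunit of the Elongator complex, which modifies transfer RNA, and its nearer probe lies 412 bases past the Cldn7 probe. That probe read 3.32 and 3.26 in WT small intestine and 4.28 and 4.04 in KO small intestine, and 3.44 and 3.31 in WT large intestine and 4.23 and 4.49 in KO large intestine. KO and WT arrays did not overlap in either segment, and the difference was 1.91-fold over both (0.93 ± 0.15, adjusted p = 0.053). Under 5 of 19 alternatives its adjusted p was under 0.05, within a range of 0.0197 to 0.17. The second Elp5 probe was also higher in both segments (0.50 ± 0.15, adjusted p = 0.166). Ctdnep1, a nuclear envelope phosphatase gene whose start window shares the 32 bases in capitals above, differed by -0.08 ± 0.17 (adjusted p = 0.862).

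The other close neighbours differed less or overlapped. On the side above Cldn7, the 2 probes of Gabarap, an autophagy gene, gave 0.06 ± 0.22 and 0.06 ± 0.18, and Phf23 gave 0.20 ± 0.14. Acadvl, a mitochondrial fatty acid oxidation enzyme, gave -0.38 ± 0.28. Dvl2, a Wnt signalling adaptor, had 1 probe that fell in small intestine (-1.60 ± 0.33, adjusted p = 0.0484) and differed by -0.46 ± 0.33 in large intestine (adjusted p = 0.562). The difference between these effects had an adjusted p of 0.215. Its brighter probe gave 0.12 ± 0.23 in small intestine. On the side below, Slc2a4, the insulin-responsive glucose transporter, read 2.08 and 0.71 in WT small intestine and 3.13 and 3.87 in KO small intestine (2.10 ± 0.48, adjusted p = 0.0566), and -0.21 ± 0.48 in large intestine. Ybx2 (0.38 ± 0.50), Eif5a (0.29 ± 0.23), Acap1 (-0.12 ± 0.24), the probes of Gps2 (0.34 ± 0.19 and -0.03 ± 0.19) and those of Neurl4 (-0.13 ± 0.18 and -0.08 ± 0.20) had adjusted p of 0.443 or more over both segments. Over the 21 genes of this core (29 tested probes), 1 probe passed in small intestine (3.45%, against 4.35% of all probes), 0 in large intestine (0.145% of all probes) and 0 over both (0.478%), with a median of -0.03 over both segments.

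Farther above, Eno3 and Pfn1 read higher on the KO arrays of both segments. Eno3, the muscle form of enolase, 695 kb above Cldn7, read 0.55 and 0.39 in WT small intestine and 1.14 and 1.64 in KO small intestine, and 2.32 and 2.31 in WT large intestine and 3.82 and 3.70 in KO large intestine. No arrays overlapped between genotypes (1.18 ± 0.19, adjusted p = 0.053). Pfn1, 685 kb above Cldn7, encodes the actin-binding protein profilin and gave 0.86 ± 0.19 (adjusted p = 0.0879), and the transcript ENSMUST00000108549 beside it gave 0.58 ± 0.19 (adjusted p = 0.196). None of these passed the test.

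Distance from Cldn7 did not order the effects. The size of the effect and the distance had a Spearman rho across probes of 0.036 in small intestine, -0.097 in large intestine and -0.052 over both (n = 326 probes of the same arrays, which are not independent). The share of members shifted the same way in both segments was 15.1% within 0.5 Mb, 20.5% from 0.5 to 1 Mb, 22.2% from 1 to 2 Mb, 12.2% from 2 to 3 Mb, 16.7% from 3 to 4 Mb and 3.33% from 4 to 5 Mb. Within 1 Mb, 15 of 111 probes below Cldn7 were lower and 0 higher in both segments. Above Cldn7, 7 of 70 were lower and 10 higher. Over all probes of the array 10.2% were lower and 4.89% higher. Of the 15, 6 are lincRNA probes, and 5 of these come from the cluster described, and neighbouring probes share transcripts, so they are not separate observations. This difference between the sides was not tested. In small intestine 5 rises and 3 falls that passed lay from 2 to 3 Mb, among 49 tested probes. Over the whole array 2.31% of probes rose and 2.04% fell. From 3 to 4 Mb 0 of 30 passed. These 5 are all the rises called among members, and 2 of them are probes of Slc13a5. The uneven spread of calls was not tested.

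**Figure D4:**
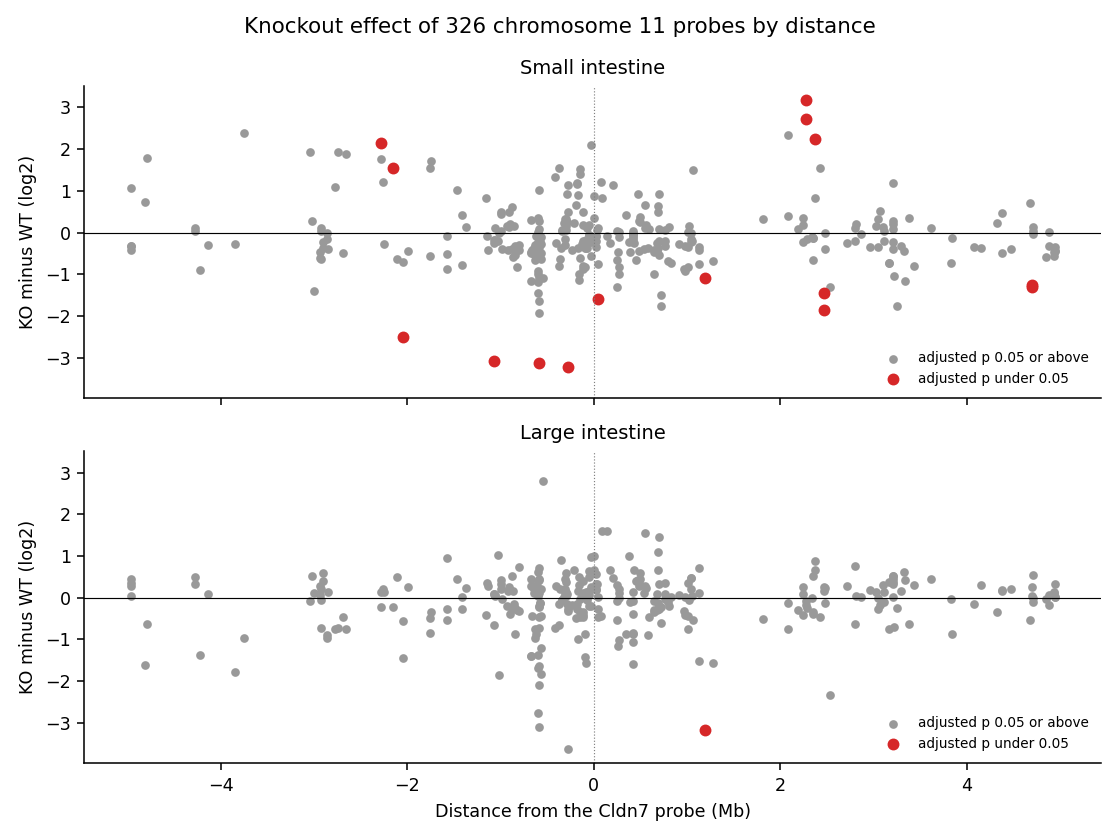
KO minus WT difference (log2) of the 326 tested probes in small intestine (top) and large intestine (bottom) by distance from the Cldn7 probe in Mb, negative for lower coordinates. Red points passed at an adjusted p under 0.05: 15 in small intestine and 1 (Nlrp1b) in large intestine. Of the 15, 5 rises and 3 falls lie from 2 to 3 Mb, and 0 calls lie from 3 to 4 Mb.

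**Figure D5:**
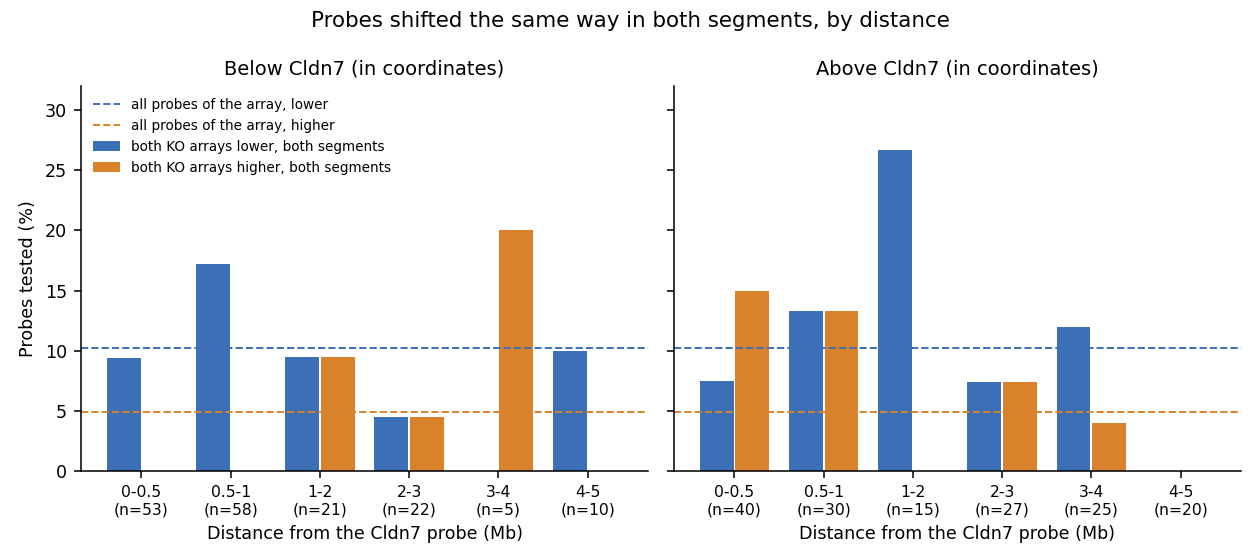
Percent of tested probes whose KO arrays are all lower (blue) or all higher (orange) than the WT arrays in both segments, by distance class and side, with n probes per class and dashed lines for all probes of the array (10.2% lower, 4.89% higher). Classes with n under 20 hold few probes. Below Cldn7 no bar for higher probes appears within 1 Mb.

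In small intestine taken alone, 15 members passed (4.6%, against 4.35% of all probes), 5 higher in KO (2.31% of all probes) and 10 lower (2.04%). With other scalings the rises outnumbered the falls: 16 to 9 with another background correction, 13 to 10 after quantile normalization, 23 to 11 with median centring and 20 to 11 in the deposited values. Over all probes the rises outnumbered the falls with the main scaling, 894 to 789. The splits over all probes with other scalings are not given here, so whether those of the members stand apart is not known. The rises included Slc13a5, a plasma membrane citrate transporter, whose 2 probes rose 9.05-fold and 6.57-fold. The brighter read -3.77 and -4.35 in WT and -1.73 and -0.96 in KO (2.72 ± 0.34, adjusted p = 0.0263). Gas7, a gene of neurite outgrowth, read -0.38 and -0.79 in WT and 1.16 and 1.97 in KO (2.15 ± 0.30, adjusted p = 0.0291), and its dimmer probe gave 1.77 ± 0.44 (adjusted p = 0.0629). Tekt1, a tektin of ciliary microtubules, rose on 1 of 2 probes (2.23 ± 0.43, adjusted p = 0.046, against 0.82 ± 0.41 on the other). The probe that rose was well above background on 1 of 2 WT small arrays, so the size is uncertain. Dhrs7c was not well above background in WT and was measured on 1 of 2 KO arrays, at least 1.06-fold higher (adjusted p = 0.0462). In large intestine the same probes differed by -0.23 to 0.88.

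Beside Tnfsf13os, the lincRNA probe, ENSMUST00000068548, Nlrp1b and Dvl2, the falls in small intestine were these. Both probes of Cluh, which binds messenger RNAs of mitochondrial proteins, fell (-1.27 ± 0.20 and -1.30 ± 0.20, adjusted p = 0.0331 for each). The brighter Cluh probe read 4.23 and 4.22 in WT and 2.92 and 2.99 in KO, and in large intestine 3.76 and 3.85 in WT and 3.70 and 4.01 in KO. Both probes of Ggt6, a gamma-glutamyltransferase family member, fell (-1.85 ± 0.32 and -1.46 ± 0.27, adjusted p = 0.0389 and 0.0436), the brighter from 1.89 and 2.14 to 0.63 and -0.29. Rnf222 was not well above background in KO small intestine and was at least 4.40-fold lower there. It was well above background on both WT small arrays, the group where it is high, and on neither WT large array. Its adjusted p (0.0294) was computed from measured values that include those below background, not from the bound. Groups did not overlap for any of these probes in small intestine, while the Cluh and Ggt6 probes differed by 0.05 to 0.26 in large intestine.

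These small intestine calls rest on few arrays. Leaving out WT small 3, KO small 3, WT large 2 or WT large 3 removed all calls among members, and most or all calls over the whole array. Without KO large 2 or KO large 3 both counts fell, and without KO small 2 both rose. Such fits leave 1 sample in a group, so no counts are given. When the small intestine arrays were fitted alone, 0 members and 0 of all 38717 probes were called. Markers of other cell types were also called in small intestine, where 2.31% of all probes rose and 2.04% fell. Of 6 enteric neuron markers 5 rose in KO small intestine, and their summed level was 3.15 to 3.99 in WT and 5.13 to 5.81 in KO. Enteric glia markers rose in 2 of 4, with sums of 0.45 to 1.56 in WT and 2.41 to 2.88 in KO, and smooth muscle sums were 7.36 to 8.21 and 8.84 to 9.13 (0 of 8 passed). Of 5 T cell markers 4 fell, Cd3d, Cd3e, Cd3g and Cd8a (-3.28, -1.29, -3.02 and -3.62), with no overlap between WT and KO small intestine. The summed level of the list, 5.80 to 6.38 on these arrays, is set by Cd4, the brightest, which did not pass (adjusted p = 0.999). Of 5 macrophage markers 3 rose, Adgre1, Cd14 and Lyz2. The summed level of this list overlapped, at 6.16 to 6.36 in WT and 5.93 to 6.67 in KO small intestine. It is set by Csf1r, the brightest, which did not pass (-0.04, adjusted p = 0.943). Cd68, itself a member, did not pass either (0.32, adjusted p = 0.476). Every marker of these lists was well above background on at least 1 array. Their part in the changes of Gas7, Slc13a5 and the other members was not tested.

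In large intestine 1 member passed, Nlrp1b, as a fall (0.307%, against 0.145% of all probes, 0.093% lower and 0.0517% higher), and 53 members had an unadjusted p under 0.05 (16.3%, against 13.8% of all probes). For the difference of the KO effect between segments, limma called 0 of 326 members (against 0.062% of all probes, 0.0362% up and 0.0258% down), and 59 had an unadjusted p under 0.05 (18.1%, against 22% of all probes). The widest difference was that of Dnah2, an axonemal dynein heavy chain (3.90, adjusted p = 0.144). Dnah2 read 5.77 and 4.88 in WT small intestine and 5.60 and 2.87 in KO small intestine, and -2.84 and -3.31 in WT large intestine against -0.58 and 0.04 in KO large intestine. The KO large arrays were both above the WT large arrays, and the small intestine arrays overlapped. On the array with liver RNA, Asgr1 and Asgr2, the subunits of the hepatocyte asialoglycoprotein receptor, read -0.45 and -0.59, while the other 7 arrays lay between -6.48 and -4.22 for Asgr1 and between -3.65 and -2.45 for Asgr2.

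More members passed between segments than between genotypes, and the same held over all probes of the array. Between large and small intestine of WT pups 52 members passed (16%, against 14.4% of all probes), 19 higher in large intestine (6.53% of all probes) and 33 lower (7.91%). Dnah2 was 338-fold lower in large intestine (-8.40 ± 0.83, adjusted p = 0.00233). Spns3, a sphingolipid transporter family member, read 1.71 and 2.00 in small and -2.30 and -2.01 in large intestine (-4.01 ± 0.45, adjusted p = 0.00354), and in KO pups 1.27 and -0.20 in small and -4.47 and -4.52 in large intestine. Tm4sf5, a tetraspanin-like membrane protein gene, was lower in large intestine (-2.94 ± 0.32, adjusted p = 0.00323). Tnfsf13os was lower as well (-3.61 ± 0.52, adjusted p = 0.00845). Rnf222 was at least 5.28-fold lower, against the same WT small arrays as in its KO comparison. Its adjusted p (0.00441) was not computed from this bound. Higher in large intestine were Atp2a3, an endoplasmic reticulum calcium pump (2.34 ± 0.20, adjusted p = 0.00166), Pitpnm3 (2.27 ± 0.52, adjusted p = 0.0331) and both probes of Rangrf (2.00 and 1.87). Olfr411, an olfactory receptor gene, was not well above background in WT small intestine and was at least 2.64-fold and 3.67-fold higher in large intestine by its 2 probes. The probes of Nlrp1b (1.60 ± 0.19, adjusted p = 0.00407) and Eno3 (1.84 ± 0.23, adjusted p = 0.00493) were higher in large intestine too. This comparison shares its WT arrays with the KO comparisons. Leaving out any 1 WT array lowered the count of calls among members and over the whole array. A group then holds 1 sample, so these counts are not given.

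Read by function, the members showed no group that passed together in KO pups. The counts for all lists, here and in the next paragraph, stand beside these shares of all probes. In small intestine 4.35% passed, in large intestine 0.145% and over both segments 0.478%. Of 24 tested probes of immune and inflammasome genes, Nlrp1b passed in each segment and no other did. Clec10a, a macrophage lectin, gave 0.80 ± 0.25 over both segments (adjusted p = 0.185), and Arrb2, a beta-arrestin, 0.67 ± 0.20 (adjusted p = 0.163), both with KO arrays higher in both segments. On the list of neuron and synapse genes (25 tested probes), 1 probe passed in small intestine. It is that of Dhrs7c, a dehydrogenase gene known from heart and skeletal muscle rather than from neurons. The list median was 0.52 in small and -0.19 in large intestine, against -0.14 and -0.02 over all probes. Members of it that did not pass include Pirt, a sensory channel regulator (1.92 ± 0.46 in small intestine, adjusted p = 0.0606), Kcnab3 (-0.82 ± 0.25 over both, adjusted p = 0.172), Camta2 (-0.38 ± 0.15 and -0.24 ± 0.18, adjusted p = 0.27 and 0.564) and the intestinotrophic hormone receptor gene Glp2r (0.71 ± 0.31 and -0.07 ± 0.17, adjusted p = 0.322 and 0.883). On the list of muscle and stroma genes (12 tested probes), 1 probe passed in small intestine, that of Gas7, which is known from neurite outgrowth rather than from muscle. The list had a median of 0.88 there and 0.00 in large intestine. The stress kinase gene Map2k4, also of this list, gave 0.27 ± 0.16 and 0.22 ± 0.15 over both segments (adjusted p = 0.481 and 0.542). The sarcomeric myosins Myh1, Myh2, Myh3 and Myh8 had 5 tested probes and 0 passed, with medians of 1.08 in small and -0.76 in large intestine. Both Myh3 probes differed little in small intestine (1.11-fold and 1.01-fold). The skeletal muscle marker list had a median of 1.98 in small and -0.45 in large intestine. Its summed level was 0.78 to 1.93 in WT and 2.72 to 3.66 in KO small intestine, set mostly by Acta1, the brightest. Myog did not move in small intestine (0.09). Mylpf, which was not tested, read -9.10 and -8.53 in KO against -7.90 and -5.32 in WT small intestine. Of 4 tested markers 1 passed in small intestine, the troponin gene Tnnt3 (2.14, adjusted p = 0.0491). Their part in the myosin values was not tested. Myh1 was higher in WT large than in WT small intestine (2.98 ± 0.62, adjusted p = 0.0258). Its probe was well above background on 1 of 2 WT small arrays, so the size is uncertain.

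The metabolic list (25 tested probes) had the 2 rises of Slc13a5 in small intestine and no call in large intestine or over both segments. The monocarboxylate transporter gene Slc16a13 (-0.93 ± 0.31 and -0.37 ± 0.17, adjusted p = 0.20 and 0.337) and Shpk, the sedoheptulose kinase gene (-1.01 ± 0.43, adjusted p = 0.312), were lower in KO arrays in both segments without passing. Lipoxygenases had 6 tested probes and 0 passed between genotypes. Of them Alox12 gave -0.99 in small and -1.01 in large intestine. Over both segments Alox12b gave -0.31 ± 0.13 and 0.15 ± 0.36 and Aloxe3 gave -0.56 ± 0.34, and Alox15 was lower in WT large than in WT small intestine (-2.58, adjusted p = 0.0403). Of 9 olfactory receptor probes 0 passed between genotypes. Olfr391 (-0.38 ± 0.21), Olfr392 (-0.50 ± 0.28), Olfr139 (-0.24 ± 0.19) and Olfr385 (0.27 ± 0.23) had adjusted p of 0.42 or more. Among genes of transcription, translation and protein turnover (31 probes) 0 passed between genotypes. The RPA transport gene Rpain gave -0.78 ± 0.22 and -0.21 ± 0.18 (adjusted p = 0.15 and 0.603), and Ctns, the lysosomal cystine transporter, -0.87 ± 0.29 (adjusted p = 0.209). Transcription factor and clock genes (16 probes) and cell cycle and genome maintenance genes (18 probes) had 0 calls between genotypes as well. Bcl6b gave -0.82 ± 0.28 (adjusted p = 0.218), the centrosomal gene Cntrob -0.42 ± 0.15 (0.231), and Kctd11 -0.90 ± 0.32 and -0.87 ± 0.46 (0.225 and 0.408). Pafah1b1, the lissencephaly gene, had 3 probes at 0.25, 0.07 and -0.03, and the kinesin gene Kif1c 3 probes at -0.18, 0.07 and 0.08.

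Where a gene had several probes, they mostly had the same sign, about as often as over the array. Among 53 genes with at least 2 tested probes, all probes had the same sign over both segments in 38 (71.7%, against 72.4% of such genes over the array). The probes of a gene lay within a median of 0.21 of each other (0.17 over the array), beside a median effect size of 0.27 among members. The probes of 1 gene, Nlrp1a, spanned more than 1 (1.89%, against 4.18% over the array). The next widest were Kdm6b (0.96), Dvl2 (0.95) and Ankfy1 (0.84).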

How the data were processed

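Total RNA was hybridised to 8 single-colour Agilent arrays (Cy3), 2 for each genotype and segment, and groups were taken from the sample titles. Per the file headers, the deposited scanner files give spot intensity that is background-subtracted and detrended within the array by Agilent Feature Extraction, with mm9 probe positions. The authors also deposited a table of intensity values scaled between arrays, with column medians of 158.06 to 160.06, that correlated with the scanner signal at 0.991 or more, and its background step is not given in the sources used here. Per the submitters' processing notes R 3.3.0 was used.

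Log2 intensity minus each array's 75th percentile was used (59305 spots per array, 148 to 312 left out for outlier flags, spots of a probe averaged). Testing needed a signal well above background on both arrays of 1 group or more, which left 38717 probes. limma 3.58.1 (with R 4.3.3) fitted 1 mean per group (4 residual degrees of freedom), or genotype and segment as additive terms over both segments (5), with Benjamini-Hochberg adjustment over all 38717 probes. An adjusted p under 0.05 is a call. The number of arrays limits the precision. Fits were tested on simulated data. A probe not well above background on either array of a group has only a bound: the fold is against the higher of the lowest well-measured signal and its own value on each array. The adjusted p printed with a bound comes from the measured values, those below background included.

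Members were named by accession (289 probes), symbol (16), older symbol (7) or the file's name (2) against RefSeq genes of GRCm38.p6, used for names alone, and 119 have no name. Of the named members, 1 is placed on another chromosome there. The genes named are the nearest 6 on each side, those that passed with the largest changes, and up to 4 per gene list. Clone and lincRNA names were passed over, and those that appear, with Asgr1, Asgr2, Spns3 in KO pups, Pfn1's neighbour, Tnfsf12, Ankfy1 and Dnah2 in KO pups, were chosen after their values were seen. Members and lists were chosen with earlier results of these data known. Alternatives covered background correction, scaling, the deposited values, filters, flags, 1 probe per gene, the variance prior, blocks, the arrays fitted, a 2-fold minimum, a 2.5 Mb reach and leaving out each array.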

Additional observations from a re-analysis of the deposited data

How the results depend on the processing

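Each group holds 2 arrays, which limits every call. The count of members called in small intestine was 15, and 25 with normexp background correction, 23 with quantile normalization, 34 with median centring, 31 in the deposited values, 2 without the background filter, 25 for probes well above background on all arrays, 27 with a trended and robust prior, and 0 with the compared groups alone. The count over the whole array moved as well. It was 1683 of 38717 probes, and 3183 with normexp, 2537 with quantile normalization, 3503 with median centring and 3472 in the deposited values. Without the background filter it was 137 of 55379, and for probes well above background on all arrays 2806 of 32204. The trended and robust prior gave 3010, and the compared groups alone 0. In large intestine the count of members was 1, and 2 with median centring or 1 probe per gene and 3 with the compared groups alone. Over the whole array these were 56, 109, 61 (of 19777 probes) and 218. Over both segments the count of members was 3, and 5 with median centring, 1 with 1 probe per gene and 5 with a trended and robust prior. With a random block of genotype and number it was 19 (estimated correlation -0.24). Over the whole array these were 185, 273, 93 (of 19777 probes), 146 and 1392. Between the segments of WT pups the count of members was 52, and 33 without the background filter. Over the whole array these were 5594 and 3471 (of 55379 probes). Members shifted the same way in both segments were 52, and 27 with 1 probe per gene and 10 at a 2-fold minimum. Leaving out 1 array in turn gave 0 to 41 calls in small intestine, 0 to 3 in large intestine, 0 to 4 over both, 0 to 1 for the difference, 11 to 64 between WT segments and 63 to 85 members shifted the same way. With an array left out, having no overlap is easier to meet, so the rise in members shifted the same way does not measure stability. Median centring moved the median KO effect of all probes in large intestine from -0.02 to 0.13. No called value of a named member changed sign under the alternatives run.

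The samples share the numbers 2 and 3, which are also the slide rows, and the labels do not say that a number pairs them. Deviations of same-numbered arrays correlated at 0.056 to 0.274, with 2 pairs only. With the replicate block the counts of members were 10 in small intestine, 1 in large intestine, 2 over both segments, 0 for the difference and 46 between WT segments. Over the whole array these were 903, 27, 95, 16 and 5573 of 38717 probes.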
